A study of Mus musculus with 12 samples.

Results

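Krt12, Slurp1, Lypd2 and Fam83a are 4 of the 19702 genes in RNA sequencing of mouse corneas, and they were picked because they were abundant in uninjured cornea and almost absent after injury with benzalkonium chloride (BAK), a detergent preservative of eye drops. All 4 were found in the count table by symbol. There were 12 libraries in 4 groups of 3, and each library pooled 6 corneas of 3 mice, so a replicate is a pool and not an animal. Control corneas had neither injury nor treatment. Vehicle corneas received BAK at 0.2%, 5 µl per eye daily for 14 days, and are labelled as having no treatment. UCS and UCPRP corneas received the same BAK and one of a pair of biologics derived from cord blood, at 20%, 5 µl, 3 times daily for 10 days; the labels do not expand these abbreviations. Strain, age, sex, the time of harvest and the days between BAK and the biologics were not stated in the labels.

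The corneal surface is a stratified squamous epithelium that is renewed from stem cells at the limbus. Its cells fill with keratin filaments, each built from 1 type I and 1 type II keratin, and Krt12 is the type I keratin that defines corneal epithelial identity; in the mouse its partner is Krt5. Inherited faults in KRT12 cause Meesmann corneal dystrophy, in which the epithelium is fragile. Slurp1 and Lypd2 belong to the Ly6/uPAR family, small proteins with a fold of 3 loops held by disulfide bonds: Slurp1 is secreted, acts on nicotinic acetylcholine receptors and is known in cornea as an immunomodulatory product of the epithelium, while the role of Lypd2 is little studied. Fam83a carries the domain by which FAM83 proteins bind casein kinase 1, and it is known for a part in EGF receptor signalling.

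Krt12 lies on chromosome 11 of GRCm38 (99415664 to 99422593, minus strand, 8 exons; Entrez gene 268482). The other 3 genes lie on chromosome 15: Slurp1 (74726644 to 74728023, minus strand, 3 exons; 57277) and Lypd2 (74732246 to 74734795, minus strand, 3 exons; 68311) are neighbours, separated by 4222 bases, and Fam83a (57984587 to 58010706, plus strand, 4 exons; 239463) is far from them. RefSeq promoter sequence was at hand for Krt12. It is printed because Klf4 and Pax6, regulators of the corneal epithelium described further on, were also measured here. Positions in it are counted from the GENCODE start of Krt12, at 99422259. The RefSeq gene given above reaches 99422593, so the printed window lies inside that gene and not before it. The window is chr11:99422210-99422509 of GRCm38.p6, minus strand, 250 bases before to 50 bases after the annotated start, with CACCC (the core of the site bound by KLF factors), its reverse complement GGGTG, and TATAAA in capitals:
Krt12 promoter: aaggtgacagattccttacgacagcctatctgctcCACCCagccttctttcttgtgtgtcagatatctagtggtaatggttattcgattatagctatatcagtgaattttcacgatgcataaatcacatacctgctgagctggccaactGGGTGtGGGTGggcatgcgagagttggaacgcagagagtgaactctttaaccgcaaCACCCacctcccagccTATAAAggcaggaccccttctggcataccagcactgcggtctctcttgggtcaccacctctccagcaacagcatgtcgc
CACCC occurred 4 times on both strands together, 215 and 45 bases before the start on the gene's own strand and 101 and 95 bases before it on the other. Of 32851 RefSeq promoters of this length, 57.5% held at least 1 such match and 3.1% held at least 4. TATAAA occurred once, 29 bases before the start, and 13.6% of promoters held it on either strand. AACCNGTT (GRHL), GCCNNNGGC (TFAP2), ACCGGAAGT (Ets) and TTCACGC (Pax6 paired domain) had no match on either strand in this window; 2.09%, 16.6%, 1.1% and 1.26% of promoters held them. A match describes letters and does not show that a factor binds.

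Values are counts per 1 M library counts scaled by TMM (CPM), given as mean ± SD over 3 libraries. Library totals were 18.55 M to 20.44 M estimated counts, and TMM factors were 0.825 to 1.067. Some libraries stood apart within their groups, and those features touch the results that follow. Control replicate 2 had the lowest TMM factor and the lowest summed lens markers of the Control group (464 CPM against 6890 and 12700). Vehicle replicate 2, UCS replicate 2 and UCPRP replicate 3 had the highest lens sums of their groups, at 8630, 11600 and 25900 CPM. Clock genes divided the libraries: Vehicle replicates 1 and 2, UCS replicate 1 and Control replicate 3 had Dbp at 14.7 to 25.9 CPM and Arntl at 39.1 to 66.4 CPM, and the other 8 had high Dbp and low Arntl. UCPRP held no library of the low-Dbp kind.

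Krt12 was the most abundant of all measured genes in uninjured cornea and was close to absent in every injured library. Its Control level was 18900, 32860 and 15900 CPM (22550 ± 9050). Vehicle corneas had 9.185, 7.177 and 23.94 CPM (13.4 ± 9.15), which is 0.0596% of the Control mean. UCS corneas had 18.86, 40.32 and 8.678 CPM (22.6 ± 16.2; 0.1%). In UCPRP corneas it was 185.5, 7.545 and 3.289 CPM (65.5 ± 104; 0.29%). The UCPRP mean came almost wholly from replicate 1, while replicate 3 was the lowest of the 9 injured libraries and replicate 2 the third lowest. Even so, the lowest Control library was 85.7 times the highest injured one, and 394 times the highest one when UCPRP replicate 1 was left out. These low levels were measurable: Vehicle libraries held 178, 147 and 469 reads of Krt12, against 367106, 554228 and 307127 in Control. An annotated antisense transcript, A830036E02Rik, overlaps 5304 bases of Krt12 and has no row in the table; no label states whether counting used strand, so reads of the pair cannot be told apart.

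Slurp1 ranked 43rd among all genes in Control, at 1339, 2109 and 1091 CPM (1513 ± 531). It was 0.516, 0.2441 and 1.072 CPM in Vehicle (0.611 ± 0.422), 0.0404% of the Control mean. UCS libraries had 0.6374, 0.1606 and 0.3063 CPM (0.368 ± 0.244; 0.0243%). In the injured groups this is a handful of reads: 10, 5 and 21 in Vehicle, and 12, 3 and 6 in UCS. The UCPRP libraries had 113, 1 and 0 reads, or 6.027, 0.0513 and 0 CPM (2.03 ± 3.46; 0.134%). Replicate 1 was again the highest injured library and the other 2 the lowest; the 0 of replicate 3 allows up to 0.154 CPM (3 reads), which covers counting error only. The 322 bases that GENCODE's Slurp1 shares with Them6 on the opposite strand add an uncertainty of the same kind as for Krt12.

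Lypd2 resembled Slurp1 in level and in loss. Control had 1409, 2365 and 1319 CPM (1698 ± 579), which placed it 37th. Vehicle had 0.4644, 0.1953 and 0.8166 CPM (0.492 ± 0.312; 0.029%), from 9, 4 and 16 reads. UCS had 0.425, 0.589 and 0.3063 CPM (0.44 ± 0.142; 0.0259%), from 8, 11 and 6 reads. The 3 UCS libraries were closer together than those of any other injured group for this gene. UCPRP had 8.053, 0.1027 and 0 CPM (2.72 ± 4.62; 0.16%), from 151, 2 and 0 reads, so the same replicate carried the group mean.

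Fam83a kept more than the other 3 genes. Its Control level was 438.1, 622 and 360.3 CPM (473.5 ± 134), rank 246. Vehicle had 23.36, 17.13 and 5.678 CPM (15.4 ± 8.97), or 3.25% of Control. UCS had 4.09, 14.52 and 4.718 CPM (7.78 ± 5.85; 1.64%). UCPRP had 14.22, 5.796 and 6.22 CPM (8.75 ± 4.75; 1.85%). Its highest injured library was Vehicle replicate 1 and not UCPRP replicate 1, and the lowest Control library was 15.4 times that value. Vehicle replicates 1 and 2, of the low-Dbp kind, had the highest Fam83a of the injured libraries, but UCS replicate 1, of the same kind, had the lowest; the part of the clock in these values was not tested. Control replicate 2 was the highest Control library for all 4 genes, and the part of its scaling or of its low lens RNA in that was not tested.

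**Figure D1:**
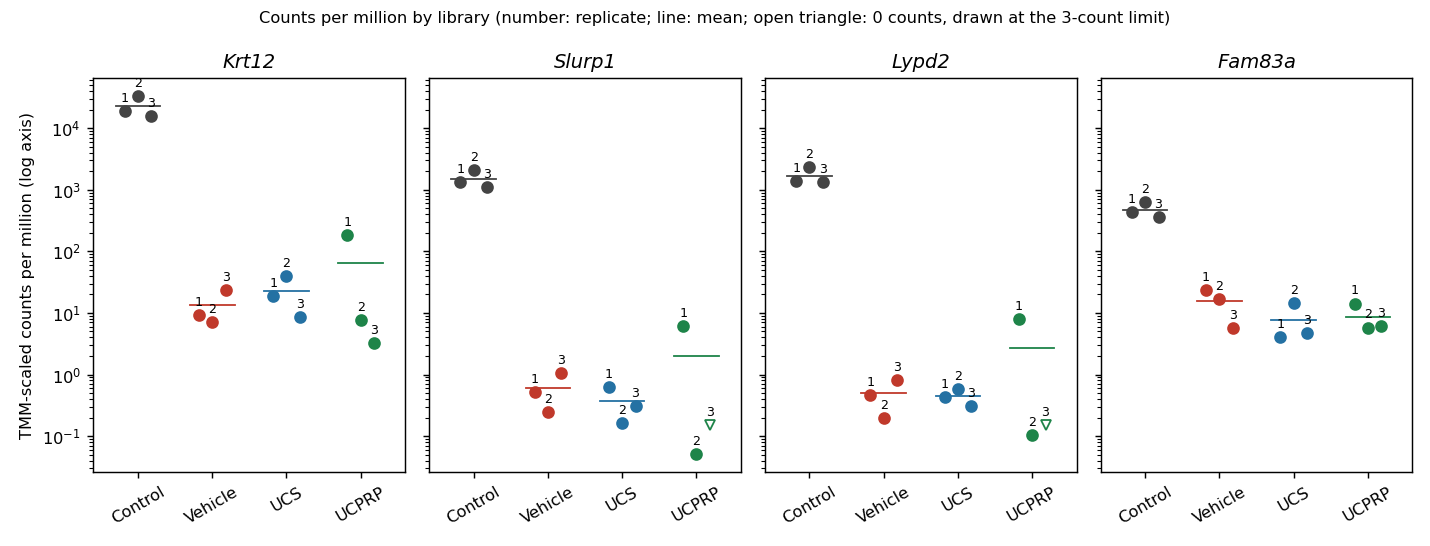
TMM-scaled CPM of Krt12, Slurp1, Lypd2 and Fam83a (vertical log axis) in each of the 12 libraries by group; points are libraries numbered by replicate, lines are group means, and open triangles are libraries with 0 reads drawn at the limit of 3 reads. All 3 Control points lie above all 9 injured points for each gene, and UCPRP replicate 1 stands above the other injured libraries for Krt12, Slurp1 and Lypd2 but not for Fam83a.

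All 3 Control libraries were above all 9 injured ones for 4 of 4 genes, and for 7.57% of the 16124 tested genes. The edgeR quasi-likelihood test called 6.92% of the tested genes lower in Vehicle than in Control (adjusted p under 0.05), 4.47% lower in UCS and 5.07% lower in UCPRP; since the genes were picked on this loss, their own values against Control are a description and carry no test. The log2 fold changes in Vehicle were -10.71 for Krt12, -11.27 for Slurp1, -11.74 for Lypd2 and -4.94 for Fam83a. In UCS they were -9.96, -11.98, -11.90 and -5.93 in the same order. In UCPRP they were -8.43, -9.55, -9.29 and -5.76. The 3 comparisons share the Control libraries. The fitted values of Slurp1 and Lypd2 rest on few reads and depend on the default prior count of edgeR. In bulk tissue fewer cells of a type and less RNA per cell cannot be told apart.

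Among the 2184 genes with at least 100 CPM in Control, the median gene had 91.2% of its Control level in Vehicle, and 123 had under 50%. Under 0.5% there were 3 genes, Lypd2, Slurp1 and Krt12, and no further gene came under 1%. The gap to the next gene was wide: Ppp1r3c, which targets protein phosphatase 1 to glycogen, kept 2.21%, followed by Fam83a at 3.25%. After it came Homer2 (4.18%), a scaffold protein, and Dsg1a (4.57%), a desmosomal cadherin of upper epithelial layers. The tenth place was held by the water channel Aqp5 at 10.9%, after the progestin receptor Paqr5 (7.46%) and Aldh3a1 (8.93%), the aldehyde dehydrogenase that is a major soluble protein of corneal epithelium. In all, 9 of these abundant genes had under 10% in Vehicle, and 7 each did in UCS and in UCPRP. Without Vehicle replicate 2 the Vehicle count was 18, and 9 of the 10 genes that joined were on the lens list or crystallins; without UCS replicate 2 the UCS count was 16, and all 9 that joined were of that kind. The 7 genes under 10% in each of the 3 injured groups were the 4 picked genes with Ppp1r3c, Homer2 and Dsg1a.

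**Figure D2:**
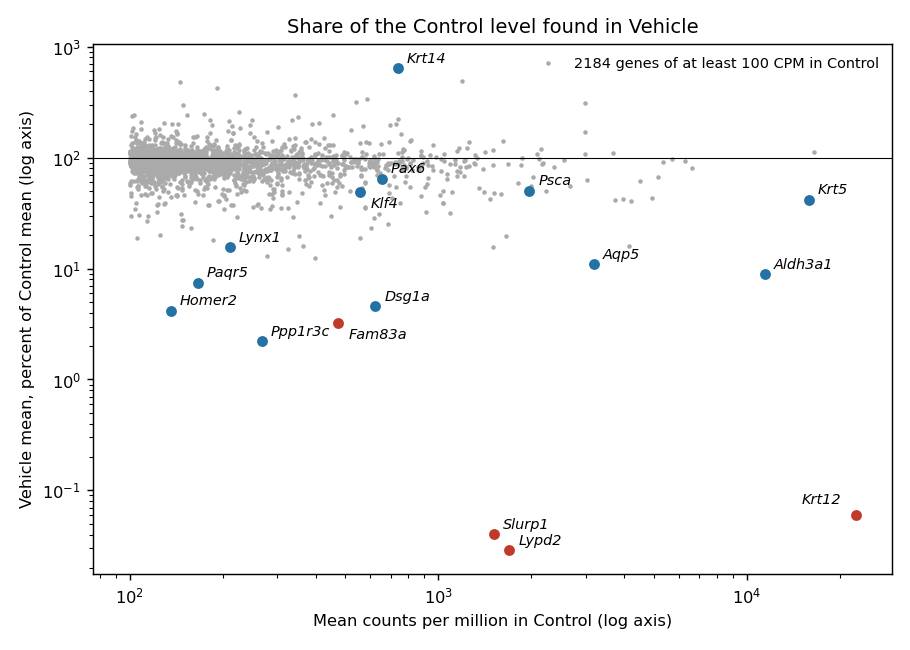
Vehicle mean as a percent of the Control mean (vertical log axis) against the Control mean in CPM (horizontal log axis) for the 2184 genes of at least 100 CPM in Control; red points are the picked genes, blue points are other named genes, and the line marks 100%. Lypd2, Slurp1 and Krt12 lie at 0.029%, 0.0404% and 0.0596%, below all other points, and Fam83a at 3.25% lies among Ppp1r3c, Homer2 and Dsg1a.

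Outside the 4 genes, the profiles most like each of them were those of Cyp24a1, Ppp1r3c and Dbx2. Likeness was the root mean square difference of log2 CPM from the gene's own Control mean over 12 libraries, among 12288 candidates of at least 5 CPM in Control that leave out the 4 genes and names with Gm, Rik or bare identifiers. Cyp24a1, the hydroxylase that inactivates vitamin D, was 7.03, 7.24 and 4.36 CPM in Control and had 0 reads in all 3 Vehicle libraries, at least 41.0-fold lower. The homeobox gene Dbx2 averaged 5.46 CPM in Control and 0.0847 CPM in Vehicle. The log2 CPM used for likeness carried a prior count of 2, which limits how far a gene of few CPM in Control can fall. The differences of Cyp24a1 and Dbx2 from the 4 genes therefore depend on that prior count. Slurp2, at 2.60 CPM on average in Control, was below the limit for candidates. For Fam83a the 3 differences were 0.81 to 0.85. For Krt12 they were 4.37 to 4.87, and for Slurp1 and Lypd2 5.28 to 5.81. Slurp1 and Lypd2 were closest to each other (0.47), Krt12 differed from them by 1.23 and 1.07, and Fam83a from all 3 by 4.35 to 5.27.

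Proportions between the genes were read within each library. Krt12 over Slurp1 was 14.1, 15.6 and 14.6 in Control; in the 8 injured libraries with a Slurp1 read it ran from 17.8 to 251. Slurp1 over Lypd2 was 0.95, 0.892 and 0.827 in Control and 0.273 to 1.5 in those 8 libraries, on both sides of the Control values and from few reads. Krt12 over Fam83a was 43.1, 52.8 and 44.1 in Control and 0.393 to 13.0 after injury. That these ranges did not overlap restates the shares of Control kept by each gene, on which they were picked, and tests nothing. On a scale of CPM per kilobase of transcript, Control levels were 12200 for Krt12, 3310 for Lypd2 and 165 for Fam83a. Krt5 stood at 7210 and Aldh3a1 at 6600 on that scale. Slurp1 is left out of it because its GENCODE transcript is longer than the RefSeq gene.

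Whether the biologics moved these transcripts was read in contrasts among the injured groups. The choice of genes was not independent of these contrasts. All injured groups received BAK, and the genes were picked as almost absent after it. A gene restored by a biologic was thus less likely to be picked. Slurp1 and Lypd2 passed the filter on low counts only through their Control reads. They could not be fitted when only the injured groups compared were used. Their values in the 3 contrasts that follow therefore rest on very few reads and on a spread shared with Control. For both genes the intervals and adjusted p in these contrasts are a description and not a test. In UCS against Vehicle no gene at all was called among 16124 (0%; 782 genes had an unadjusted p under 0.05), and none of the 4 had an unadjusted p under 0.05. Krt12 differed by 0.75 on the log2 scale (SE 1.16, 95% interval -1.80 to 3.30, edgeR adjusted p = 1). For Slurp1 the value was -0.71 (SE 1.56, -4.14 to 2.72, edgeR adjusted p = 1), and for Lypd2 -0.16 (SE 1.62, -3.71 to 3.40, edgeR adjusted p = 1). Fam83a was -0.99 (SE 0.58, -2.27 to 0.29, edgeR adjusted p = 1), with UCS replicate 2 inside the Vehicle range and the other 2 below it. The intervals span changes of several fold either way for the first 3 genes, so a difference of that size was not detectable with these pools.

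UCPRP against Vehicle likewise gave no called gene (0%; 1572 had an unadjusted p under 0.05), and again none of the 4 was among those. Krt12 differed by 2.28 (SE 1.20, 95% interval -0.35 to 4.92, edgeR adjusted p = 0.566). Slurp1 differed by 1.71 (SE 1.23, -0.99 to 4.42, edgeR adjusted p = 0.69) and Lypd2 by 2.45 (SE 1.29, -0.38 to 5.28, edgeR adjusted p = 0.567), with 0 to 2 reads of either in UCPRP replicates 2 and 3. Replicate 1 decided all 3 signs: without it the values were -1.31, -4.25 and -3.10, with adjusted p of 0.603, 0.556 and 0.556 by edgeR. Fam83a was -0.82 (SE 0.58, -2.08 to 0.45, edgeR adjusted p = 0.684) and -1.36 without that library. DESeq2 called 145 genes in this contrast and 13 in UCS against Vehicle, none of them Krt12, Slurp1, Lypd2 or Fam83a. In simulated data, which lacked the clock and lens differences of these libraries, DESeq2 made too many false calls. These counts are given only as an alternative setting, and how many of them are false here was not tested.

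UCPRP against UCS had no called gene (0%; 393 with an unadjusted p under 0.05). Krt12 was 1.53 (SE 1.17, -1.03 to 4.10), Slurp1 2.43 (SE 1.35, -0.53 to 5.38), Lypd2 2.60 (SE 1.32, -0.29 to 5.50) and Fam83a 0.17 (SE 0.59, -1.12 to 1.46). The edgeR adjusted p was 0.985 for the first 3 and 0.996 for Fam83a. Without UCPRP replicate 1 all 4 were negative, at -2.06, -3.54, -2.94 and -0.37.

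**Figure D3:**
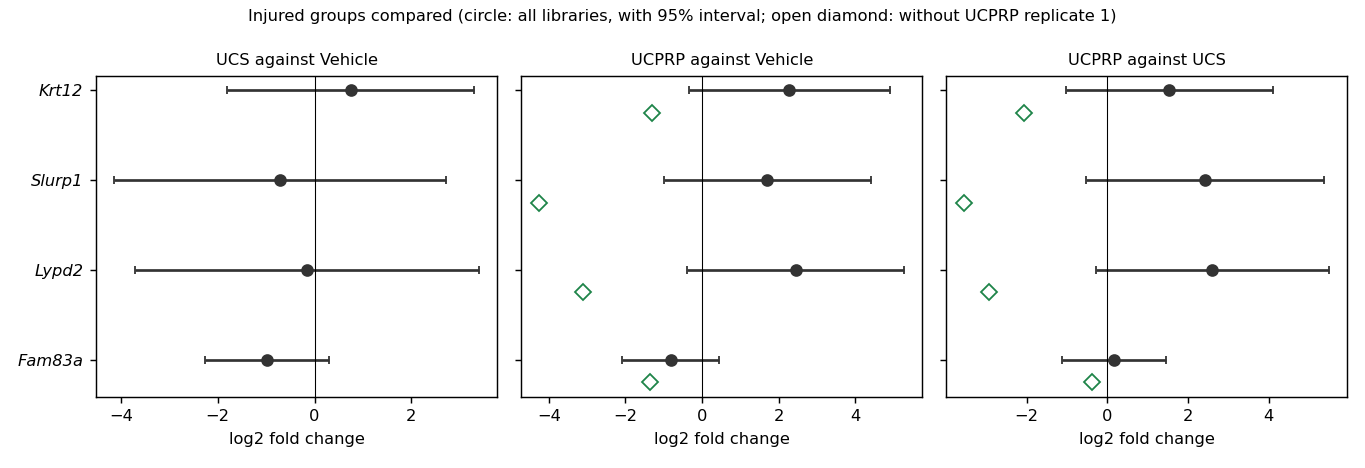
Log2 fold changes (horizontal axis) between the injured groups for the 4 genes, one panel per contrast; circles with bars are edgeR values with their 95% intervals from all libraries, and open diamonds are values without UCPRP replicate 1. Every interval includes 0, and for Krt12, Slurp1 and Lypd2 the diamonds lie on the other side of 0 from the circles, at -1.31, -4.25 and -3.10 in UCPRP against Vehicle.

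UCPRP replicate 1 and the limit of 4 times used here were chosen after these values were seen, so the counts describe that library and test nothing. Among the 12590 genes of at least 5 CPM in Control, 3 had a level there at least 4 times that of the next injured library, and these 3 were Lypd2, Slurp1 and Krt12, of which the first 2 had at most 21 reads in any other injured library. Of the other 8 injured libraries 7 had no such gene, and UCS replicate 3 had 1 (Gm39701). Among the 9 abundant genes under 10% in Vehicle, UCPRP replicate 1 was the highest injured library for 6: Krt12, Slurp1, Lypd2, Dsg1a, Aldh3a1 and Paqr5. It was the highest injured library for 20.1% of all 2184 abundant genes. Its level of Krt12 was still 0.823% of the Control mean, of Slurp1 0.398% and of Lypd2 0.474%. Fam83a stood at 3.0% of Control there, within the injured range of 0.864% to 4.93%.

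What remained of Krt12, Slurp1 and Lypd2 was correlated across the 9 injured libraries, with few reads of Slurp1 and Lypd2 outside UCPRP replicate 1. Slurp1 and Lypd2 passed the filter on low counts only through their Control reads. Coefficients and permutation p with either gene are therefore a description and not a test. How often other gene pairs reach such coefficients was not examined. On log2 CPM, Krt12 and Lypd2 had Pearson r = 0.951 (exact permutation p = 0.000171, 0.00103 adjusted over 6 pairs) and Spearman rho = 0.95 (exact permutation p = 0.000353, adjusted 0.00212). Leaving out UCS replicate 2 and UCPRP replicate 1, the libraries farthest from the median of Krt12, r was 0.911. UCPRP replicate 3, with 0 reads of Lypd2 and of Slurp1, stayed in. In the 6 high-Dbp libraries r was 0.969, and the 3 low-Dbp injured libraries are too few for a value. Krt12 and Slurp1 had r = 0.835 (exact permutation p = 0.00807, adjusted 0.0161) and rho = 0.717 (exact permutation p = 0.0369, adjusted 0.0737), with r = 0.908 without the same pair of libraries and 0.871 in the high-Dbp ones. The adjusted permutation p was under 0.05 for r and not for rho. Slurp1 and Lypd2 had r = 0.947 (exact permutation p = 0.000419, adjusted 0.00126) and rho = 0.817 (exact permutation p = 0.0108, adjusted 0.0323). This last one rested on UCPRP replicates 1 and 3, since r without them was 0.755 with an exact permutation p of 0.0506. In the high-Dbp libraries r was 0.961.

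For Fam83a no coefficient with the others had an adjusted permutation p under 0.05. Its r with Krt12, Slurp1 and Lypd2 was 0.244, 0.214 and 0.32 (adjusted exact permutation p = 0.601 for each), and its rho was -0.0333, -0.167 and 0.1 (adjusted exact permutation p = 0.948 for each). The r was 0.79, 0.438 and 0.647 in the 6 high-Dbp libraries (exact permutation p = 0.0583, 0.385 and 0.192), and -0.242, -0.148 and 0.0567 without the 2 libraries farthest from the median of the other gene (UCS replicate 2 and UCPRP replicate 1 for Krt12, UCPRP replicates 1 and 3 for Slurp1 and Lypd2). Slurp1 and Lypd2 are represented by 0 to 21 reads in the injured libraries other than UCPRP replicate 1, so counting error is a large part of their spread. The injured libraries come from 3 groups, which the permutations treated as exchangeable, and the points share each library's scaling.

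**Figure D4:**
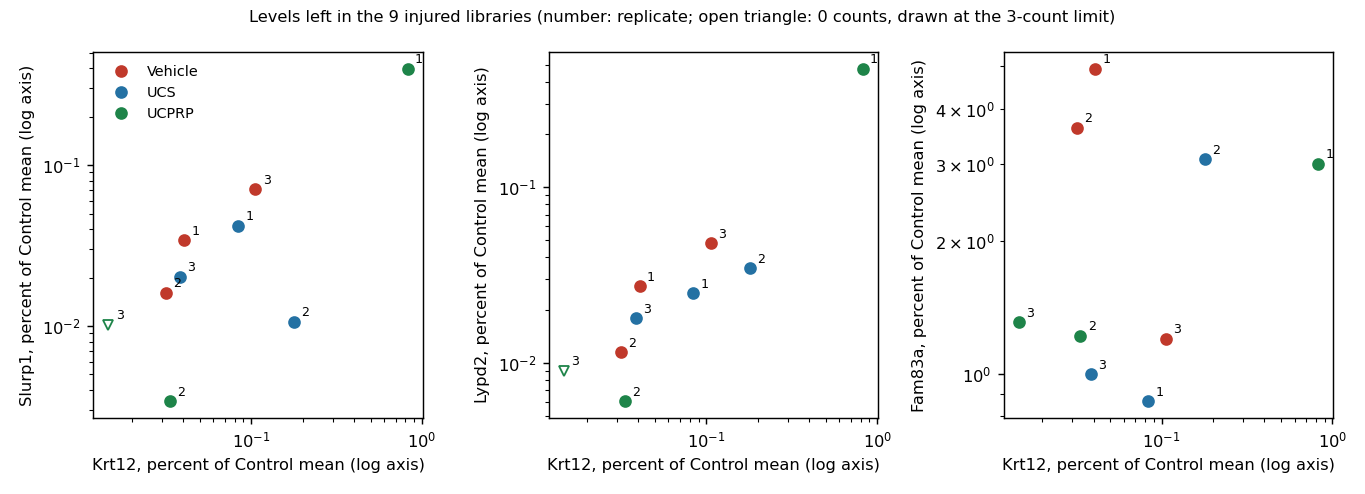
Level of Slurp1, Lypd2 and Fam83a (vertical log axes) against that of Krt12 (horizontal log axes) in the 9 injured libraries, each as a percent of the gene's Control mean; colours are groups, numbers are replicates, and open triangles are 0 reads drawn at the limit of 3 reads. Slurp1 and Lypd2 rise with Krt12, up to UCPRP replicate 1 at 0.823% for Krt12, while Fam83a is scattered between 0.864% and 4.93%.

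Slurp1 and Lypd2 sit at one end of the mouse Ly6 cluster, and the genes next to them were lower as well. Slurp2, a secreted relative of Slurp1, lies 8043 bases beyond Lypd2; it was 2.32, 3.74 and 1.76 CPM in Control and had 0 reads in all 3 Vehicle libraries, at least 17.2-fold lower, with 1 read in the 9 injured libraries together. Lynx1, a membrane-anchored modulator of nicotinic receptors, fell from 200.4, 241.2 and 192.1 CPM to 20.12, 39.5 and 38.63 CPM, a log2 change of -2.69 (SE 0.30; edgeR, adjusted p = 0.00021). On the other side Them6, a thioesterase family member, fell by 2.10 on the log2 scale (adjusted p = 0.00313 by edgeR), with the strand limit noted above. Psca, a Ly6 protein of surface epithelia, went from 1971 ± 799 to 991.8 ± 120 CPM (-0.99, edgeR adjusted p = 0.018), and its call was lost without Vehicle replicate 2, without Vehicle replicate 3 and when only the 2 groups were fitted (largest adjusted p 0.0875). Further along the cluster 5 of 11 tested genes rose (9.58% of all genes) and 0 fell (6.92%). Ly6e, Ly6a, Ly6c1, Ly6c2 and Gpihbp1, named after their values were seen, rose by 0.99 to 2.25 on the log2 scale. The other 6 had values from -1.12 to 1.75 that did not pass the test, and of these Ly6d averaged 1.62 CPM in uninjured and 2.14 CPM in Vehicle corneas (edgeR adjusted p = 0.756).

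**Figure D5:**
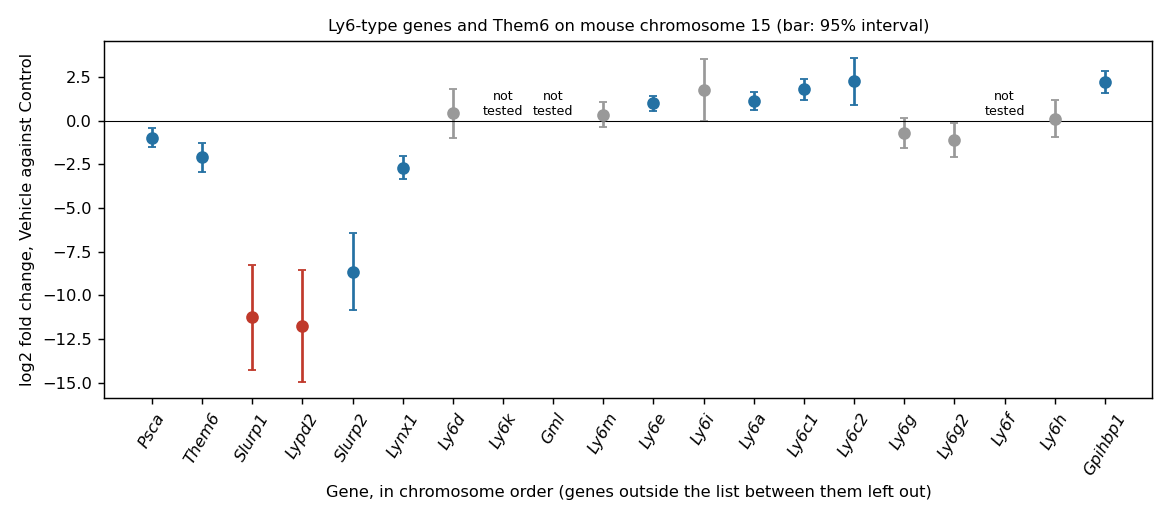
Log2 fold change, Vehicle against Control (vertical axis), with 95% intervals for Ly6-type genes and Them6 in their order on chromosome 15 (horizontal axis, evenly spaced); red marks Slurp1 and Lypd2, blue genes with an adjusted p under 0.05, and grey the others. Psca, Them6, Slurp1, Lypd2, Slurp2 and Lynx1 are all below 0, and Ly6e, Ly6a, Ly6c1, Ly6c2 and Gpihbp1 are above 0. The fitted value of Slurp2, with 0 reads in Vehicle, depends on the default prior count of edgeR.

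The neighbours of Krt12 and Fam83a were read in the same way. Krt12 lies among type I keratins, and of its nearest tested neighbours Krt10 and Krt23 rose, by 1.18 and 1.11 (edgeR adjusted p = 0.0262 and 0.0426), while Krt20 had a value of -1.48 at under 1 CPM (edgeR adjusted p = 0.109) and Krt28 was too low to test. The calls of Krt10 and Krt23 were lost in 3 and 12 of 20 alternative settings. Beside Fam83a, Tbc1d31 fell by 0.53 (edgeR adjusted p = 0.00939, and 0.065 when only the 2 groups were fitted), and Derl1, Zhx1 and 9130401M01Rik had values of -0.09, 0.00 and 0.29 with edgeR adjusted p of 0.679, 0.992 and 0.121.

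Of 14 other type I keratins that could be tested, 7 rose in Vehicle, against 9.58% of all genes, and 0 fell, against 6.92%; 10 had an unadjusted p under 0.05. Their median log2 fold change was 1.15 and that of all genes 0.00. Krt14, the basal-layer type I keratin, went from 495.3, 858.6 and 866.8 CPM to 5807, 4809 and 3641 CPM (2.68, SE 0.28, edgeR adjusted p = 0.000156). Krt17 and Krt16, keratins of stressed and wounded epithelium, rose by 3.19 and 2.57, and Krt13, found in conjunctiva and other mucosa, by 1.63. The call of Krt16 was lost in 4 of 20 alternative settings (largest adjusted p 0.0619 by edgeR), and its lowest Vehicle library, at 115.9 CPM, was close to the highest Control one, at 103.5 CPM. Without Control replicate 1 or without Control replicate 3 the count of keratins that rose was 3, and it was 4 without Vehicle replicate 1 or without Vehicle replicate 3. Krt5, the type II partner, kept 41.6%: it fell from 13750, 22560 and 11200 CPM to 6733, 5946 and 7099 CPM (-1.26, SE 0.26, edgeR adjusted p = 0.00666), and its adjusted p was 0.0537 when only the 2 groups were fitted. Krt12 over Krt5 was 1.37 to 1.46 in Control and 0.000565 to 0.023 in the injured libraries, whereas Krt14 over Krt5 was 0.036 to 0.0774 and 0.349 to 0.862.

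The wider Ly6/uPAR family moved both ways. Of 28 tested relatives of Slurp1 and Lypd2, 7 rose (9.58% of all genes) and 8 fell (6.92%) in Vehicle, with a median of -0.09. These counts include the Ly6 cluster genes given above. Beyond the cluster, Ly6g6c fell by 2.94 and Lypd8 by 3.25. The urokinase receptor Plaur rose from 0.875, 2.02 and 2.07 CPM to 26.5, 19.2 and 6.18 CPM (3.39, SE 0.50, edgeR adjusted p = 0.000906). The 16 listed subunits of nicotinic receptors, on which Slurp1 acts, summed to 81.5 to 101 CPM in Control and 73.7 to 102 CPM in Vehicle. The highest of them in Control was Chrnb4, which averaged 24.59 CPM there and 20.97 CPM in Vehicle. Chrna7 was low, with 2.10 ± 0.46 CPM in Control and 1.68 ± 0.428 CPM in Vehicle (edgeR adjusted p = 0.596). Of 11 tested subunits, 1 rose (Chrna1, the muscle subunit, named after its value was seen) and 0 fell, near the shares of 9.58% and 6.92% over all genes; 1 had an unadjusted p under 0.05. Skeletal muscle markers summed to 209 to 1320 CPM in Vehicle and 17.6 to 380 CPM in Control, with 0 of 10 called by edgeR (0 with an unadjusted p under 0.05), and their part in the Chrna1 result was not tested. The call of Chrna1 was absent under limma-voom, with the replicate block, when only the 2 groups were fitted and in 9 of the 12 fits with a library left out.

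Relatives of Fam83a were called at about the share of all genes: of 10 other FAM83 and casein kinase 1 genes, 1 rose (9.58% of all genes) and 1 fell (6.92%), and the median was -0.04. Fam83e rose from 0.824, 2.08 and 4.50 CPM to 36.5, 26.7 and 32.5 CPM (3.68, SE 0.41, edgeR adjusted p = 0.000204). Fam83g went from 82.6 to 52.7 CPM (-0.65, edgeR adjusted p = 0.0367), and lost its call in 7 of 20 alternative settings.

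Other genes of the corneal epithelium were measured alongside. Of 25 listed, 10 fell (6.92% of all genes) and 5 rose (9.58%) in Vehicle, with a median of -0.55 and values from -4.45 upward. Dsg1a, Aldh3a1 and Aqp5 are among the genes named for their low share kept, so their values are a description: Dsg1a was 629.2, 645.6 and 597.2 CPM in Control and 24.56, 14.95 and 46.08 CPM in Vehicle, a log2 change of -4.45, and the changes of Aldh3a1 and Aqp5 were -3.49 and -3.20. The membrane mucin Muc16 had no read in Control and 6.34 CPM in Vehicle, at least 39.1-fold higher. Of 21 transcription factors of this epithelium, 7 fell (6.92% of all genes) and 1 rose (9.58%), with a median of -0.29. Klf4, a zinc finger factor that corneal maturation needs, went from 556.8 ± 122 to 273 ± 33.9 CPM (-1.03, SE 0.17, edgeR adjusted p = 0.00187). Pax6, the master regulator of eye development, went from 655.6 ± 43.4 to 422 ± 36 CPM (-0.64, SE 0.13, edgeR adjusted p = 0.00523). Tfap2c also fell, by 1.06 (edgeR adjusted p = 0.00808, and 0.0501 when only the 2 groups were fitted), and Runx1 rose by 1.53. The count of falling factors was 4 without Vehicle replicate 3 and 4 when only the 2 groups were fitted.

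None of the genes on these 6 lists was called in UCS or UCPRP against Vehicle by edgeR (0% of all genes in either contrast); of 108 tested, 7 and 18 had an unadjusted p under 0.05. Without Vehicle replicate 3, 4 of them were called in UCPRP against Vehicle, and DESeq2 called 1.

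Markers of other tissues were read beside the loss, from lists chosen with earlier results of these data known. The 20 general epithelial markers summed to 23000 to 39500 CPM in Control and 19000 to 25300 CPM in the injured libraries. In Vehicle 4 of these markers rose (9.58% of all genes) and 9 fell (6.92%). Keratins such as Krt5, which fell, and Krt14, which rose, made up much of the sum. Conjunctival and goblet cell markers summed to 2860 to 6600 CPM in Control and 13900 to 20800 CPM after injury. In Vehicle 11 of 14 rose, against 9.58% of all genes. Muc5ac, the goblet cell mucin, rose from 0.412, 0.949 and 2.33 CPM to 654.7, 456.9 and 518.7 CPM (8.77, SE 0.57, edgeR adjusted p = 2.2e-05). Leukocyte markers summed to 241 to 354 CPM in Control and 508 to 1000 CPM in Vehicle, and 7 of 9 tested rose (9.58% of all genes). Lens, retina and corneal endothelium lists had 0 called genes by edgeR (0, 0 and 1 gene with an unadjusted p under 0.05), with lens sums of 464 to 12700 CPM in Control and 57.3 to 25900 CPM after injury. The part of conjunctival, leukocyte or lens RNA in the levels of Krt12, Slurp1, Lypd2 and Fam83a was not tested.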

How the data were processed

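Library preparation used the TruSeq Stranded Total RNA chemistry on RNA from Qiagen RNeasy columns, per the labels' protocols. HISAT and GRCm38 appear in the submitters' processing notes; how reads were counted, with which annotation and strand setting, is not given in the sources. The authors deposited unscaled estimated counts per gene, 64.9% of them whole numbers. They were rounded, filtered with filterByExpr (minimum count 10), which left 16124 of 19702 genes, scaled with TMM, and tested by quasi-likelihood F tests in edgeR 4.0.16 (R 4.3.3; robust, 1 term per group over 12 libraries, Benjamini-Hochberg adjustment over the genes tested, called at an adjusted p under 0.05). SE is the absolute log2 fold change over the square root of F. CPM used a prior count of 2 on the log2 scale, while the edgeR fold changes used the default prior count of that tool. Pearson and Spearman coefficients were given exact permutation p in Python 3.11.15. RefSeq matched 19644 genes by Entrez identifier and gave 1 of 4 promoters; GENCODE M21 gave exons. The fit was tested on simulated data with known changes. There edgeR and limma-voom held their error level, and DESeq2 made too many false calls at 3 libraries against 3.

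The 4 genes and all gene lists were chosen with earlier results of these data known. Named genes were these 4, the abundant genes (at least 100 CPM in Control) with the 10 lowest shares kept in Vehicle, the 3 profiles most like each (at least 5 CPM in Control), the 2 nearest genes on either side, up to 4 per list by size of change, and Krt5, Krt14, Pax6, Klf4, Aldh3a1, Slurp2, Ly6d, Psca, Plaur, Chrna7, Muc5ac, Dbp and Arntl; the 5 other Ly6 cluster genes that rose were named after their values were seen. Alternatives were RLE scaling, library totals, no filter, DESeq2 1.42.0, limma-voom (limma 3.58.1), only the groups compared, a replicate block, the clock phase as a term, and each library left out. Depth limits precision: 3 reads are 0.146 to 0.178 CPM. Markers of epidermis (1 of 7 tested higher, 2 lower in Vehicle), keratocytes (3 higher, 1 lower of 8) and the clock (0 called of 11, 1 with an unadjusted p under 0.05) were also read, against 9.58% higher and 6.92% lower over all genes. The values of 1 gene that this rule selects are not reported here.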

Additional observations from a re-analysis of the deposited data

How the results depend on the processing

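Each fall of the 4 genes against Control kept its direction in every alternative run. The genes were picked on this loss, so that outcome was largely set in advance and tests nothing. With 1 library left out at a time, the fall in Vehicle ranged from -11.43 to -10.35 for Krt12, -11.95 to -10.87 for Slurp1, -12.31 to -11.35 for Lypd2 and -5.37 to -4.55 for Fam83a; in UCPRP it ranged from -12.02 to -7.87, -15.52 to -8.96 and -14.84 to -8.71 for the first 3, with the low ends without UCPRP replicate 1. UCPRP against Vehicle ranged from -1.31 to 3.00, -4.25 to 2.39 and -3.10 to 3.04 for Krt12, Slurp1 and Lypd2; UCPRP against UCS from -2.06 to 2.24, -3.54 to 3.06, -2.94 to 3.19 and -0.37 to 0.98 for Krt12, Slurp1, Lypd2 and Fam83a; Lypd2 in UCS against Vehicle from -0.55 to 0.42. Under limma-voom the sign turned for Lypd2 in UCS against Vehicle (0.01), for Slurp1 and Lypd2 in UCPRP against Vehicle (-1.27 and -0.61), and for Krt12, Slurp1 and Lypd2 in UCPRP against UCS (-0.19, -0.63 and -0.62); the cause was not tested. No adjusted p within the injured groups passed the threshold in any setting run. Slurp1 and Lypd2 fell below the filter, and could not be fitted, in injured contrasts when only those groups were used.

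List counts moved as follows. With only the groups compared, 4 factors fell (7 with all groups), 0 nicotinic subunits rose (1) and 0 FAM83 or casein kinase genes fell (1). Nicotinic subunits that rose were also 0 under limma-voom and with the replicate block. FAM83 genes that fell were 0 with the clock term, and 2 rose with library totals. DESeq2 called 1 listed gene in UCPRP against Vehicle. With a library left out, falling factors were 4 to 8, rising keratins 3 to 8, nicotinic 0 to 1, falling FAM83 genes 0 to 1 and listed genes in UCPRP against Vehicle 0 to 4. Abundant genes under 10% were 8 to 18 in Vehicle and 6 to 16 in UCS, alternatives added after seeing the data. With only the groups compared 1777 genes were called in Vehicle against Control, not 2661, and with library totals 868 of 2888 calls were lower, not 1116 of 2661, with the median gene moved to 0.11.

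Same-numbered libraries did not pair as a whole: 7 of 18 correlations of their deviations were over 0.1 (range -0.581 to 0.494). Replicate 1 libraries of the injured groups did correlate, at 0.34 (Vehicle and UCS), 0.494 (Vehicle and UCPRP) and 0.354 (UCS and UCPRP). With Control replicate 1 the same libraries had -0.581, -0.226 and -0.214. Libraries of different number reached 0.584 (Control replicate 2 and Vehicle replicate 1). With the replicate block, Krt12 was 1.33 (edgeR adjusted p = 0.823) in UCPRP against Vehicle and 0.43 in UCS against Vehicle, and 2300 genes were called in Vehicle against Control.

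With 0 to 21 reads of Slurp1 and Lypd2 in most injured libraries, depth limits what contrasts among injured corneas can show.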
